A study of Bos grunniens with 6 samples.

Results

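The let-7 family is described here in cultured cells of the yak (Bos grunniens) hair follicle. Its members were chosen by name: every entry of the deposited miRNA table whose cattle name, without the prefix bta- and the arm, is let-7a, let-7b, let-7c, let-7d, let-7e, let-7f, let-7g, let-7i or miR-98. They are listed there as bta-let-7a-5p, bta-let-7a-3p, bta-let-7b, bta-let-7c, bta-let-7d, bta-let-7e, bta-let-7f, bta-let-7g, bta-let-7i and bta-miR-98. This gave 10 of the 2853 entries, 9 of them with the family's seed and 1, let-7a-3p, from the opposite arm of a let-7a hairpin. Small RNA had been sequenced from dermal papilla cells, a mesenchymal cell type of the follicle base, which the labels call dermal cells, and from hair matrix cells, the dividing epithelial cells around them, which they call epidermal cells. Each cell type had 3 libraries labelled as biological replicates, with no animal or culture named. All 6 came from wild-type skin, and the cells were isolated and then grown in DMEM/F12 with 10% serum (FBS), 10 ng/mL IGF1 and 20 ng/mL EGF, so the cells are described in culture and not in the follicle. The series title names the detection of expression profiles between the 2 cell types as its purpose.

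let-7 miRNAs are short RNAs that guide Argonaute proteins to messenger RNAs carrying a match to the seed, bases 2 to 8 of the miRNA. They were found in Caenorhabditis elegans as timing genes, and in mammals they are known to accumulate as cells differentiate and to repress growth genes such as HMGA2, the RAS genes and LIN28. LIN28 proteins in turn block the maturation of let-7 precursors, and in mice LIN28A is known to promote hair regrowth.

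The mature sequences of the deposited table (DNA letters, 5′ to 3′, seed in capitals) are shown because the members differ from each other by few bases outside a shared seed, which bears on how far their levels can be told apart.
let-7i: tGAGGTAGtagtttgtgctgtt
let-7g: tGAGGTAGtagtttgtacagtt
let-7a-5p: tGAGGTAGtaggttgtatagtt
let-7c: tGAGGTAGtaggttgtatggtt
let-7b: tGAGGTAGtaggttgtgtggtt
let-7f: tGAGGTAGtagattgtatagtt
let-7e: tGAGGTAGgaggttgtatagt
let-7d: aGAGGTAGtaggttgcatagtt
miR-98: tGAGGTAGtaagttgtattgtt
let-7a-3p: cTATACAAtctactgtctttc

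Counted from 1 at the 5′ end and with the let-7a-5p base first, let-7c differs from let-7a-5p by A19G, let-7f by G12A and let-7e by T9G. let-7b differs by A17G and A19G, let-7d by T1A and T16C, let-7g by G12T and T18C, and miR-98 by G11A and A19T. let-7i is the most distant, with G12T, A17G, T18C and A19T. Of the 36 pairs of seed-sharing members, 4 were 1 base apart (let-7a-5p with let-7c, let-7e and let-7f, and let-7b with let-7c) and 10 were 2 bases apart. No other entry of the table, named or predicted, held the letters of the let-7 seed, and 0 entries outside the family came within 2 mismatches of a member over at least 18 aligned bases. The rule the authors used for reads that match several entries is not given in the sources used here, so the values of members 1 base apart are uncertain. An entry also pools the hairpins that give the same mature sequence.

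Levels are given as RPM, an entry's reads scaled to a common library total that includes reads on no listed entry, and the members are 21 to 22 bases long, so no scaling by length was made. Each library rests on 23904796 to 24693655 reads. The members held between 803 reads (let-7a-3p) and 2824441 reads (let-7i) in a library, against a floor of 3 reads, which is 0.121 to 0.125 RPM. Epithelial marker miRNAs were sought under 7 names (miR-200 family members, miR-205 and miR-203), and 6 entries were found. These summed to 82.9 to 107.6 RPM in dermal papilla libraries and to 22064 to 22261 RPM in hair matrix libraries. Mesenchymal ones (5 entries of miR-143, miR-145, miR-199a and miR-214) summed to 84688 to 87633 RPM in dermal papilla libraries and to 1159 to 1367 RPM in hair matrix libraries, so the markers follow the labels. Markers of blood and immune cells summed to 18.4 to 21.6 RPM in dermal papilla libraries and 8.59 to 11.8 RPM in hair matrix libraries. The endothelial marker miR-126 summed to 3.68 to 4.70 RPM in dermal papilla and 2.57 to 4.01 RPM in hair matrix libraries, muscle markers to 57.7 to 72.4 RPM in dermal papilla and 24.6 to 26.3 RPM in hair matrix libraries, and the neural marker miR-9 to 37.8 to 42.7 RPM in dermal papilla and 31.9 to 35.03 RPM in hair matrix libraries. In each cell type, only 1 of the 6 blood and immune entries and 1 of the 3 muscle entries reached a mean of 1 RPM. The part of these markers in the values below was not tested.

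The family as a whole was more abundant in dermal papilla cells, and nearly all of that difference lay in let-7i. The members summed to 169437, 173975 and 168280 RPM in dermal papilla libraries 1 to 3, against 109474, 111925 and 109206 RPM in hair matrix libraries 1 to 3. All dermal papilla libraries were above all hair matrix libraries, and the ratio of the means was 1.55. As a share of the reads on listed entries, the family held 23.5% ± 0.242 in dermal papilla cells, against 15.2% ± 0.294 in hair matrix cells (SD, n = 3 each). The means of the sums differed by 60362 RPM, of which let-7i made up 58595 RPM or 97.1%. Without let-7i the other 9 members summed to 56352, 58507 and 51793 RPM in dermal papilla libraries, against 53487, 54968 and 52895 RPM in hair matrix libraries. These ranges overlap, and the ratio of the means was 1.03.

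The test covered 503 entries, those that reached 1 RPM in 3 or more libraries, and all 10 members passed this filter in both cell types. Of the 503, 45.1% were called, meaning a limma adjusted p under 0.05 and a change of at least 2-fold on log2(RPM + 1), 25.2% with dermal papilla cells higher and 19.9% with hair matrix cells higher. Of the members 1 was called, let-7i, higher in dermal papilla cells, and 0 were called higher in hair matrix cells, with edgeR adding let-7a-3p and DESeq2 adding none. Without the 2-fold minimum, 82.7% of tested entries and 4 of the 10 members had an adjusted p under 0.05. These were let-7i, miR-98 and let-7b, higher in dermal papilla cells like 42.1% of tested entries, and let-7a-3p, higher in hair matrix cells like 40.6% of them. Among the 130 entries with a mean of at least 100 RPM, 84.6% had an adjusted p under 0.05 and 44.6% were called. For 4 members the values of dermal papilla and hair matrix libraries did not overlap, against 84.1% of all tested entries. The median size of the log2 change, regardless of sign, was 0.11 over the members and 0.89 over all tested entries, and the medians with sign were 0.07 and -0.01.

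**Figure D1:**
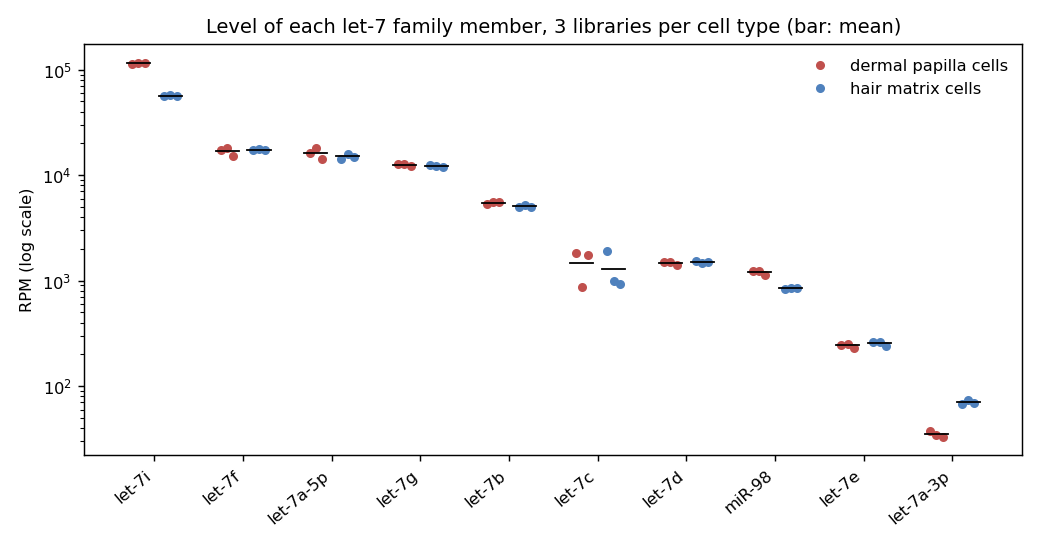
Level of the 10 members in RPM on a log axis, with 3 dermal papilla libraries left of 3 hair matrix libraries for each member, and a bar at the mean. let-7i, miR-98 and let-7b do not overlap between cell types with dermal papilla cells higher, let-7a-3p does not overlap with hair matrix cells higher, and let-7c splits within each cell type.

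let-7i, known in human bile duct cells to repress the receptor TLR4, was the most abundant member of both cell types. It was read at 113085, 115467 and 116487 RPM in dermal papilla libraries and at 55987, 56957 and 56311 RPM in hair matrix libraries. The lowest dermal papilla library was above the highest hair matrix library by far more than the spread within a cell type, which had a coefficient of variation of 1.52% in dermal papilla cells, against 0.875% in hair matrix cells. The ratio of means was 2.04, and the log2 change was 1.03 ± 0.023 (SE; 95% interval 0.97 to 1.08; limma adjusted p = 1.11e-08). The interval includes a log2 change of 1, the 2-fold minimum. let-7i ranked at place 2 among all entries in each dermal papilla library and at place 3 in each hair matrix library. On the log2 scale its SD within cell types was 0.0179, the 502nd of the 503 tested entries from the largest.

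let-7g, which is 2 bases from let-7i and, in the human genome, placed in an intron of WDR82, showed no such difference. It was read at 12750, 12895 and 12128 RPM in dermal papilla libraries and at 12490, 12315 and 12001 RPM in hair matrix libraries, ranges that overlap. Its log2 change was 0.04 (95% interval -0.05 to 0.12, limma adjusted p = 0.361). This depends on the scaling. The log2 change of let-7g was -0.24 after median centring (limma adjusted p = 0.00159) and -0.11 after quantile normalization (limma adjusted p = 4.25e-06). For each let-7g read there were 9.14 ± 0.402 let-7i reads in dermal papilla cells, against 4.60 ± 0.107 in hair matrix cells (SD, n = 3 each).

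miR-98, which in the human genome lies beside let-7f-2 in an intron of the ubiquitin ligase gene HUWE1, was higher in dermal papilla cells. Its values were 1223, 1245 and 1131 RPM in dermal papilla libraries and 838, 859 and 860 RPM in hair matrix libraries. Every dermal papilla library was above every hair matrix library, by a ratio of means of 1.41, which stays under 2-fold (log2 change 0.49 ± 0.048 SE, limma adjusted p = 4.85e-05). let-7f, which pools the product of the hairpin beside miR-98 with that of another hairpin, was at 17342, 17933 and 15353 RPM in dermal papilla libraries and at 17216, 17764 and 17428 RPM in hair matrix libraries. These overlap, with a log2 change of -0.05 (95% interval -0.19 to 0.09, limma adjusted p = 0.428). For let-7f too this depends on the scaling. Its log2 change was -0.33 after median centring (limma adjusted p = 0.00231) and -0.21 after quantile normalization (limma adjusted p = 0.000231).

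let-7b, known in mouse neural stem cells to restrain proliferation through cyclin D1 and the receptor TLX, was slightly higher in dermal papilla cells. It was read at 5367, 5604 and 5530 RPM in dermal papilla libraries and at 4971, 5261 and 4947 RPM in hair matrix libraries. The groups did not overlap, but the gap was narrow: the log2 change was 0.12 ± 0.038 (SE; limma adjusted p = 0.0216). With edgeR's quasi-likelihood test the adjusted p of let-7b was 0.0956, and after median centring its log2 change was -0.15 (limma adjusted p = 0.00971), so the direction depends on the scaling. Without dermal papilla replicate 2, hair matrix replicate 1 or hair matrix replicate 3, its limma adjusted p was 0.0651, 0.0717 and 0.0657, and over all alternatives it ran from 7.65e-05 to 0.556.

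let-7d and let-7e had nearly level values in RPM. let-7d, which is known to repress HMGA2 in lung epithelium, was at 1497, 1508 and 1403 RPM in dermal papilla libraries and at 1520, 1470 and 1516 RPM in hair matrix libraries. Its 95% interval for the log2 change ran from -0.13 to 0.07 (limma adjusted p = 0.514). let-7e, whose hairpin lies with miR-99b and miR-125a in mammals, was at 246, 252 and 231 RPM in dermal papilla libraries and at 263, 264 and 239 RPM in hair matrix libraries. Its interval was -0.22 to 0.08 (limma adjusted p = 0.322). For both members dermal papilla and hair matrix libraries overlapped in RPM. This depends on the scaling: after median centring the log2 changes were -0.31 for let-7d and -0.34 for let-7e, and after quantile normalization they were -0.34 and -0.56, each with a limma adjusted p under 0.05.

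let-7a-5p, whose sequence is shared by worm and human, was read at 16080, 18161 and 14233 RPM in dermal papilla libraries and at 14214, 15966 and 14911 RPM in hair matrix libraries. The ranges overlap (log2 change 0.10, 95% interval -0.11 to 0.31, limma adjusted p = 0.339), and leaving out 1 library gave 0.01 to 0.19. The opposite arm, let-7a-3p, usually the strand that is discarded, was higher in hair matrix cells. It was read at 37.6, 34.1 and 33.1 RPM in dermal papilla libraries and at 67.5, 74.3 and 68.6 RPM in hair matrix libraries. Every hair matrix library was above every dermal papilla library, by a ratio of means of 2.01. The log2 change was -0.99 ± 0.074 (SE; 95% interval -1.16 to -0.81; limma adjusted p = 9.99e-06), just short of 2-fold as measured on log2(RPM + 1).

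The arms of let-7a therefore stood in different proportions. There were 427, 533 and 430 let-7a-5p reads for each let-7a-3p read in dermal papilla libraries, against 210.4, 215 and 217 in hair matrix libraries. With let-7a-5p subtracted from every entry on the log2 scale, an alternative chosen after the data were seen, let-7a-3p had a log2 change of -1.09 ± 0.148 (SE; limma adjusted p = 7.09e-05, where 76.1% of entries were under 0.05). let-7a-5p pools several hairpins, and which of them also give the let-7a-3p sequence was not analysed here.

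let-7c, placed with miR-99a and miR-125b in mammals, was the member whose replicates disagreed. It was read at 1811, 875 and 1751 RPM in dermal papilla libraries 1 to 3 and at 1907, 995 and 925 RPM in hair matrix libraries 1 to 3. Dermal papilla libraries 1 and 3 and hair matrix library 1 lay at 1751 to 1907 RPM and the other 3 libraries at 875 to 995 RPM, so the split ran within both cell types. Its SD within cell types, 0.583 on the log2 scale, was the second largest of the 130 entries with a mean of at least 100 RPM, whose median was 0.0737. The log2 change was 0.22 with a 95% interval of -0.65 to 1.09 (limma adjusted p = 0.595), which includes a 2-fold difference. Leaving out 1 library gave 0.03 to 0.56, the highest without dermal papilla replicate 2. The libraries held 20949 to 47102 reads of let-7c.

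let-7a-5p, which is 1 base from let-7c, was lower in the 3 libraries with more let-7c than in any other library of the same cell type, but by amounts that did not match the let-7c difference. Summed, let-7a-5p and let-7c were at 17890, 19036 and 15983 RPM in dermal papilla libraries and at 16121, 16961 and 15836 RPM in hair matrix libraries. The sum had a log2 change of 0.11 ± 0.065 (SE; limma adjusted p = 0.154), an alternative added after the data were seen. When the 5 members that are 1 base from another (let-7a-5p, let-7b, let-7c, let-7e and let-7f) were summed into 1 entry, it had a log2 change of 0.04 (95% interval -0.09 to 0.17; limma adjusted p = 0.509), while let-7i stayed at 1.03.

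**Figure D2:**
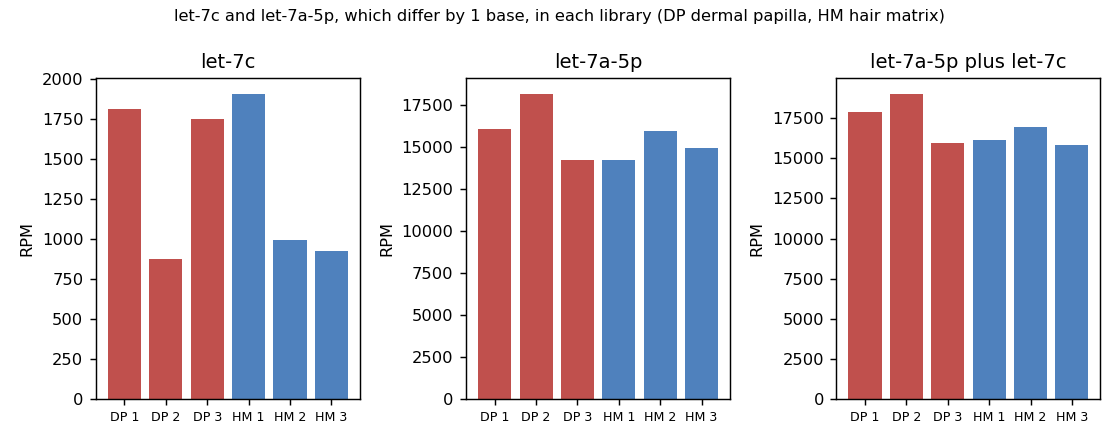
RPM of let-7c, of let-7a-5p and of their sum in each library, dermal papilla libraries (DP) left of hair matrix libraries (HM), each axis from 0. let-7c is at 1751 to 1907 RPM in DP 1, DP 3 and HM 1 and at 875 to 995 RPM in DP 2, HM 2 and HM 3.

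The order of the members by mean level was let-7i, let-7f, let-7a-5p, let-7g and let-7b in both cell types, ending with miR-98, let-7e and let-7a-3p. let-7c and let-7d changed places in between, and their libraries overlapped in each cell type. let-7f and let-7a-5p also overlapped in dermal papilla cells but not in hair matrix cells. No other neighbours in this order overlapped. Ligation in small RNA libraries is known to favour some sequences, so an order of levels in reads need not be one of molecules.

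The make-up of the family differed between the cell types. let-7i held 66.7%, 66.4% and 69.2% of the family total in dermal papilla libraries and 51.1%, 50.9% and 51.6% in hair matrix libraries. let-7f averaged 9.89% ± 0.664 of the total in dermal papilla cells, against 15.9% ± 0.117 in hair matrix cells (SD, n = 3 each). let-7a-5p averaged 9.46% ± 0.991 and 13.6% ± 0.641, and let-7g 7.38% ± 0.161 and 11.1% ± 0.238, in dermal papilla and hair matrix cells. let-7b took 3.22% ± 0.0593 in dermal papilla cells, against 4.59% ± 0.0957 in hair matrix cells, and each other member took under 1.75% in every library. Shares sum to 100%, so the larger share of let-7i lowers the others. The shares of 9 members did not overlap between cell types, let-7c being the exception. An exact two-sided permutation test gave p = 0.1 for each of the 9, the smallest that 3 against 3 libraries allow, and p = 0.6 for let-7c.

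**Figure D3:**
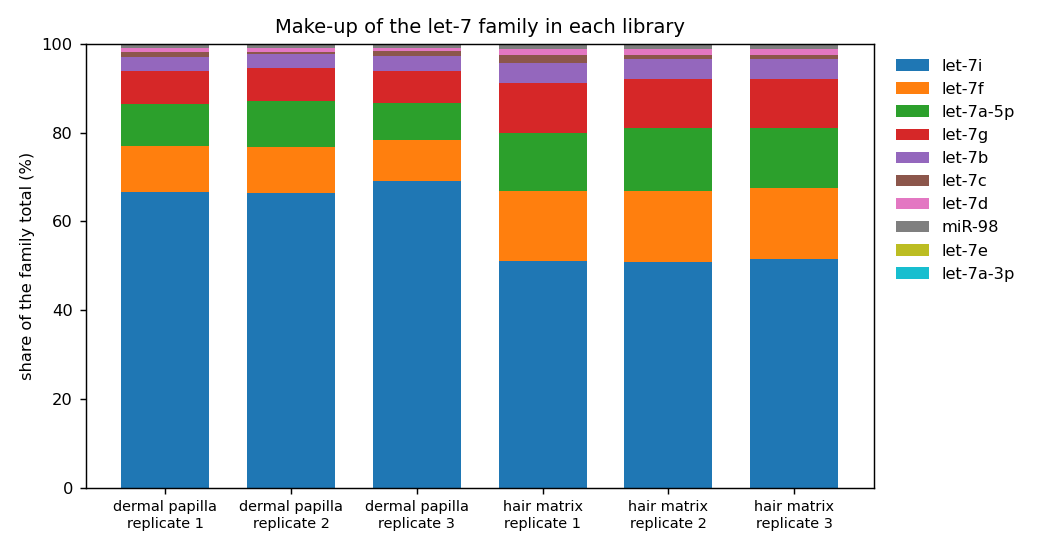
Share of each member in the family total (%) in each library, dermal papilla libraries left of hair matrix libraries. let-7i fills 66.4% to 69.2% of the dermal papilla bars and 50.9% to 51.6% of the hair matrix bars.

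Fitted with limma as the log2 ratio to the family total, 9 of 10 members had an adjusted p under 0.05, against 87.5% of all tested entries. let-7i had a log2 ratio 0.40 ± 0.026 higher in dermal papilla cells (SE, limma adjusted p = 3.62e-06), while miR-98 and the other members had negative values. That of miR-98 was -0.14 (limma adjusted p = 0.0242), and it missed 0.05 without dermal papilla replicate 3 and without any 1 of the hair matrix libraries, at adjusted p of 0.0505 to 0.0645. With let-7i taken out of the total, 3 of 10 members had an adjusted p under 0.05, against 79.5% of all entries. let-7i was at 0.98 ± 0.055 (SE, limma adjusted p = 6.86e-07), miR-98 at 0.45 ± 0.056 (adjusted p = 0.000125) and let-7a-3p at -1.03 ± 0.089 (adjusted p = 1.15e-05). miR-98 thus stood at 2.16% ± 0.0292 of the family without let-7i in dermal papilla cells, against 1.58% ± 0.0349 in hair matrix cells (SD, n = 3 each). let-7f came next by adjusted p, with 30.4% ± 0.621 in dermal papilla cells, against 32.5% ± 0.407 in hair matrix cells, ranges that did not overlap (log2 ratio -0.10, limma adjusted p = 0.0602). The ranges of let-7e did not overlap either, at 0.438% ± 0.00845 in dermal papilla cells, against 0.474% ± 0.0208 in hair matrix cells (log2 ratio -0.12, limma adjusted p = 0.163). let-7g had a log2 ratio of -0.01 in this fit, with an adjusted p of 0.877.

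**Figure D4:**
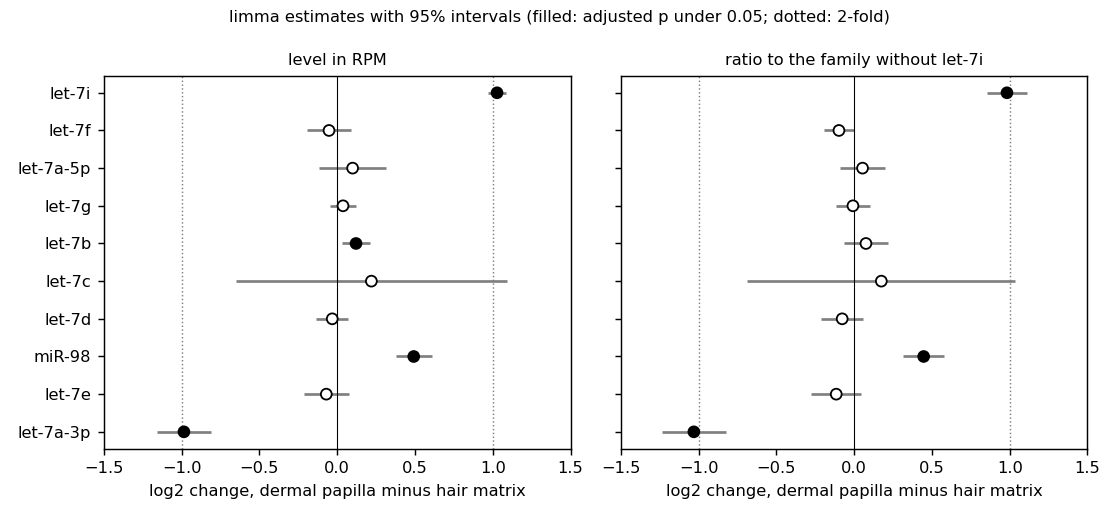
Log2 change of each member, dermal papilla minus hair matrix, with 95% intervals, for the level (left) and for the ratio to the family total without let-7i (right). let-7i, miR-98 and let-7a-3p are filled (adjusted p under 0.05) in both panels, and let-7b in the left panel.

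Another scaling moved the members by different amounts. Median centring moved the median log2 change of all 503 entries from -0.01 to -0.29 and quantile normalization moved it to -0.23. let-7i then had log2 changes of 0.75 after median centring and 0.49 after quantile normalization and was no longer 2-fold. let-7a-3p passed 2-fold in both, at -1.26 and -1.29, so the 1 member called there was let-7a-3p and no longer let-7i. Recomputing RPM without the 5 most abundant entries, which include let-7i, gave 0.93 for let-7i and -1.09 for let-7a-3p. In the fits of the level, let-7i and miR-98 were higher in dermal papilla cells, and let-7a-3p higher in hair matrix cells, under each scaling and test run. The ratio of miR-98 to the whole family was negative, as given above.

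**Figure D5:**
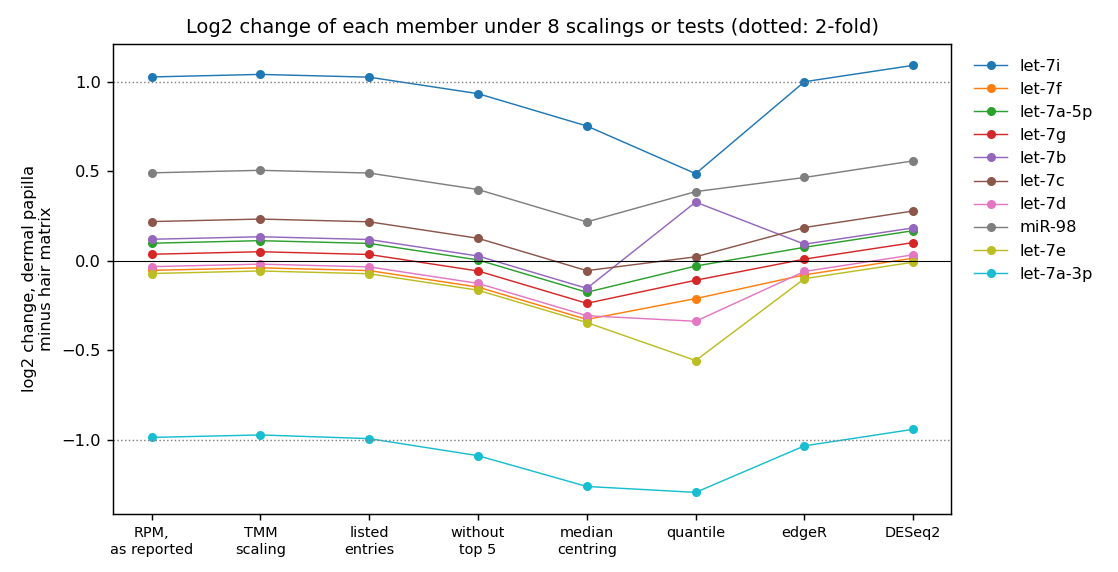
Log2 change of each member, dermal papilla minus hair matrix, for RPM as reported, 5 other scalings, edgeR and DESeq2, with a line joining the points of a member. let-7i runs from 0.49 to 1.09 and let-7a-3p from -1.29 to -0.94. The members near 0 move to either side of it, except let-7e, which stays below 0.

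The miRNAs that share hairpin clusters with let-7 members in mammals are miR-99a, miR-99b, miR-100, miR-125a and miR-125b. Of their 6 entries 5 were tested, 2 were called higher in dermal papilla cells, 0 were called higher in hair matrix cells, and 4 had an adjusted p under 0.05, with a median log2 change of 0.14. Over all tested entries 25.2% were called higher in dermal papilla cells, 19.9% were called higher in hair matrix cells and 82.7% had an adjusted p under 0.05. miR-125b averaged 3457 ± 168 RPM in dermal papilla cells, against 445 ± 11.7 RPM in hair matrix cells (SD, n = 3 each; log2 change 2.96, limma adjusted p = 1.98e-09), and miR-100 4636 ± 146 and 1581 ± 59.8 RPM (log2 change 1.55, limma adjusted p = 3.83e-08). The log2 changes were 0.14 for miR-125a and 0.12 for miR-99b, clustered with let-7e, which was at -0.07, and -0.14 for miR-99a-5p, clustered with let-7c, which was at 0.22. The abundant let-7a-5p, which includes the product of the hairpin clustered with miR-100 and miR-125b in mammals, had a log2 change of 0.10.

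Among the 121 cattle-named tested entries outside the family with a mean of at least 100 RPM, those most like let-7i over the 6 libraries were miR-484, miR-320a and miR-452. Likeness was the Euclidean distance between log2 profiles after the mean of each was subtracted, and the distances were 0.149, 0.234 and 0.248. miR-484 averaged 410 ± 18.6 RPM in dermal papilla cells, against 212 ± 1.48 RPM in hair matrix cells (SD, n = 3 each). The entries most like the family total were miR-185, miR-181b and miR-25, at distances of 0.12, 0.123 and 0.152, with log2 changes of 0.55, 0.55 and 0.56.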

How the data were processed

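The deposited table gives, per the submitters' file, a sequence and 6 values per entry. The authors call the values TPM; per the values they are RPM, since 100% are whole multiples of 1 step per library within 0.001 read, and whole reads were recovered from the deposited RPM. Per the submitters' processing notes Trimmomatic, HISAT2 2.2.1.0 and DESeq 1.20.0 were used, with no roles given. No genome build or miRNA reference is given in the sources used here, and genome positions were not used. Listed entries held 71.7% to 73.5% of each library.

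log2(RPM + 1) of entries that reached 1 RPM in 3 or more libraries was fitted with limma 3.58.1 (R 4.3.3), cell type as the only term, variances moderated with a mean trend, Benjamini-Hochberg adjustment over all 503 entries. A second fit subtracted the log2 family total. The fits were tested on simulated data. edgeR 4.0.16 and DESeq2 1.42.0 on whole reads were alternatives; they called 284 and 286 entries, against 227 with limma. Exact permutation tests used scipy 1.17.1. Replicates differed by more than counting noise (chi-square per degree of freedom 45.1 to 122), and p-values reflect only how these libraries vary, which may be technical. Intervals of log2 changes are limma's and rest on the spread between libraries, whereas the floor of 3 reads covers counting error only. All members were named. The members, marker and neighbour lists and tests were chosen with earlier results of these data known.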

Additional observations from a re-analysis of the deposited data

How the results depend on the processing

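Over all entries, the 227 calls became 127 with a filter of 10 RPM, which left fewer entries to test, and 117 with a pseudocount of 10; leaving out 1 library gave 226 to 231. The split of 127 higher in dermal papilla and 100 higher in hair matrix cells became 109 and 137 after median centring and 112 and 128 after quantile normalization. Of the members 1 was called, but 2 with edgeR, 1 to 2 without 1 library and 4 without the fold minimum. The second call was let-7a-3p, at -1.03 with edgeR, and the libraries without which it was called were dermal papilla replicate 1 and hair matrix replicates 1 and 3. The 4 members at an adjusted p under 0.05 became 8 after median centring and 8 after quantile normalization. Taking let-7i out of the total moved the 9 members whose ratio differed to 3. The family ratio of 1.55 was 1.18 after quantile normalization. It was 1.45 when the 5 most abundant entries were left out of the library total only, with let-7i kept in the family sum. Direction turned for the members near 0 other than let-7e. After median centring the log2 changes were -0.18 for let-7a-5p, -0.15 for let-7b, -0.0544 for let-7c and -0.24 for let-7g. After quantile normalization let-7a-5p was at -0.0288 and let-7g at -0.11, and without the 5 most abundant entries let-7g was at -0.0562. DESeq2 gave 0.0341 for let-7d and 0.0154 for let-7f. Without 1 library let-7d ran from -0.0514 to 0.000874 and let-7f from -0.0983 to 0.0138, above 0 only without dermal papilla replicate 3. In ratio to the family without let-7i, let-7a-5p was at 0.0539, let-7b at 0.0757, let-7c at 0.17 and miR-98 at 0.45. The negative ratio of miR-98 to the whole family missed 0.05 without trend, with no filter and without dermal papilla replicate 3 or any 1 of the hair matrix libraries, at adjusted p of 0.0505 to 0.0713. The cause was not tested. With the replicate number as a block 228 entries and 1 member were called. Deviations of same-numbered libraries correlated at 0.14, 0.08 and -0.27, and those of differently numbered ones at -0.43 to 0.39. With 3 libraries per cell type, such correlations cannot show whether same-numbered libraries share an animal. The labels name no animal, so the numbers are not taken as pairs. The summing of let-7a-5p with let-7c and the ratio to let-7a-5p were chosen after seeing the data. The fewest reads of a member in a library were 803.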

Other observations

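let-7c was not alone among abundant miRNAs in its spread within cell types. The 3 entries with the largest SD within cell types among the 130 with a mean of at least 100 RPM were miR-23b-3p, let-7c and miR-107, named after their values were seen, and each has a relative of at least 100 RPM within 1 mismatch over at least 18 bases, as do 27 of the 130 (20.8%). The median SD was 0.0713 on the log2 scale for entries with such a relative and 0.0739 for the others. miR-107 was at 147, 155 and 118 RPM in dermal papilla libraries and at 122, 83.6 and 194 RPM in hair matrix libraries. Its SD within cell types was 0.451, against 0.0447 for its sum with miR-103 and 0.0516 for miR-103 alone. miR-23b-3p, at 491, 1116 and 930 RPM in dermal papilla libraries and 938, 473 and 428 RPM in hair matrix libraries, had an SD of 0.619, against 0.0469 for its sum with miR-10174-3p and 0.135 for its sum with miR-23a. For let-7c the SD was 0.583, against 0.0974 for its sum with let-7a-5p and 0.104 for its sum with let-7b. Alone, the SD was 0.138 for let-7a-5p, 0.0416 for let-7b, 0.18 for miR-10174-3p and 0.0403 for miR-23a. Each of these relatives, like miR-103, was more abundant in every library than the entry it was summed with. The relative therefore weighs more in a sum, but the SD of a sum did not always lie between those of its parts. It was below that of the relative alone for miR-10174-3p (0.0469 against 0.18), let-7a-5p (0.0974 against 0.138) and miR-103 (0.0447 against 0.0516). For let-7b (0.104 against 0.0416) and miR-23a (0.135 against 0.0403) it lay between those of the parts. How reads were divided between near-identical entries was not tested.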
